A study of Homo sapiens with 6 samples.

Results

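Subunit genes of the 5 oxidative phosphorylation complexes were followed in Huh7 cells, a human hepatoma line, after transfection with a small interfering RNA (siRNA) against ASGR1. They were chosen by gene symbol alone (MT- mRNAs, NDUFA, NDUFB, NDUFC, NDUFS and NDUFV, SDHA to SDHD, UQCR, CYC1, COX and ATP5 names), with pseudogenes left out. The symbol rule holds no measured values, but it was set with earlier results of these data known. The symbols took 101 of the 57905 rows of the expression table. Of these, 98 are subunit genes, 13 encoded by mitochondrial DNA and 85 by nuclear chromosomes. Complex I had 43 of them, complex II 4, complex III 11, complex IV 19 (NDUFA4 included) and complex V 21 (the inhibitor gene ATP5IF1 included). The other 3 rows were a read-through transcript (ATP5MF-PTCD1), an antisense RNA (UQCRB-AS1) and a divergent transcript (UQCRFS1-DT). None of the 3 exceeded 0.24 FPKM (fragments per kilobase of exon, scaled by the authors to sequencing depth, so a level per length) in any library.

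RNA sequencing libraries were made from total RNA of cells in DMEM with fetal bovine serum, penicillin and streptomycin. Controls received a scrambled siRNA (siControl, 3 libraries), the others an siRNA against ASGR1, which encodes the major subunit of the hepatic asialoglycoprotein receptor (siASGR1, 3 libraries). Cells were harvested 72 h later, and no other treatment is named. The labels do not say whether the 3 libraries of a group came from separate cultures, so p-values here measure spread among libraries only, and this may be technical. All results are from 1 cell line and, as far as the labels tell, 1 siRNA per group.

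Complexes I to IV pass electrons from NADH and succinate to oxygen, and complexes I, III and IV pump protons across the inner mitochondrial membrane. Complex V, the ATP synthase, lets the protons flow back through a ring of c subunits, whose rotation drives ATP synthesis in the F1 head. Mitochondrial DNA encodes hydrophobic core subunits of complexes I, III, IV and V, transcribed as long precursors and cut into mRNAs, while the remaining subunits, and all of complex II, are nuclear genes whose products are imported. Hepatocytes are rich in mitochondria and use their ATP for gluconeogenesis, the urea cycle and protein secretion.

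Depth rebuilt from the deposited values was 16355000 to 19265000 fragments in siControl and 18450000 to 19285000 in siASGR1. ASGR1 was 17.54, 17.56 and 16.90 FPKM in siControl and 4.60, 4.82 and 4.71 in siASGR1 in the whole-series table, but 14.65, 15.81 and 14.04 in the separate siASGR1 files, so the 2 deposited sources give 27.2% and 85.6% of siControl. No other gene differed between these sources. All 8 hepatocyte markers were called higher, with a summed level of 3959 to 4073 FPKM in siControl and 7470 to 7766 in siASGR1. The 6 fibroblast markers summed to 5.49 to 6.62 and 0.59 to 0.85 (2 of 2 tested were lower), and the 4 muscle markers to 0.81 to 1.58 and 0.21 to 0.53. The 4 leukocyte markers summed to 1.9 to 3.16 and 1.81 to 1.89, and the 3 endothelial ones found in the table to 0.05 to 0.14 and 0.16 to 0.21, with KDR at 0 throughout. The part of these shifts in the results below was not tested, and in bulk RNA fewer cells of a type and less RNA per cell cannot be told apart.

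Subunit genes moved unevenly, and the share of members called higher was largest in complex V, the ATP synthase. Of the 98 genes, 92 had at least 1 FPKM in at least 3 libraries and were tested (limma on log2(FPKM + 1), called at an adjusted p under 0.05). Of these, 38 were called higher and 16 lower in siASGR1, and 38 were not called. That is 41.3% higher and 17.4% lower, where 20.9% of all 13568 tested genes were called higher, 40.4% lower and 61.3% in either direction. The median log2 difference (siASGR1 minus siControl throughout) was 0.13 over the 92 members and -0.13 over all tested genes. In 63 of the 92 members the groups did not overlap, as in 67.3% of all tested genes.

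The balance between rises and falls depended on scaling. FPKM are shares of a library, and median-of-ratios scaling, which takes the typical gene as unchanged, raised the median of all tested genes by 0.17 log2. With it, 62 members were called higher and 1 lower (33.7% and 25.4% of all tested genes). With the same factors taken only over genes at 1 FPKM or more in every library, the shift was 0.10 and the counts were 54 higher and 8 lower (28.1% and 31.1% of all tested genes). Set against the typical gene, rises are thus larger and falls smaller than the deposited values give, and falls that end under these scalings are named below.

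By complex, 15 of 20 tested members of complex V were called higher and 0 lower, with a median log2 difference of 0.29. Complex I had 15 higher and 8 lower of 43 (median 0.09), complex II 1 and 2 of 4 (median -0.05), complex III 3 and 3 of 11 (median 0.01) and complex IV 4 and 3 of 14 (median -0.01). Members of a complex are not replicates, and these medians were not tested against each other. The nuclear members as a whole had 33 higher and 11 lower of 79 (median 0.11), and the mitochondrially encoded mRNAs 5 and 5 of 13 (median 0.17). The plot by complex shows complex V as the only complex whose called members, nuclear and mitochondrial, all lie above 0 as deposited.

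**Figure D1:**
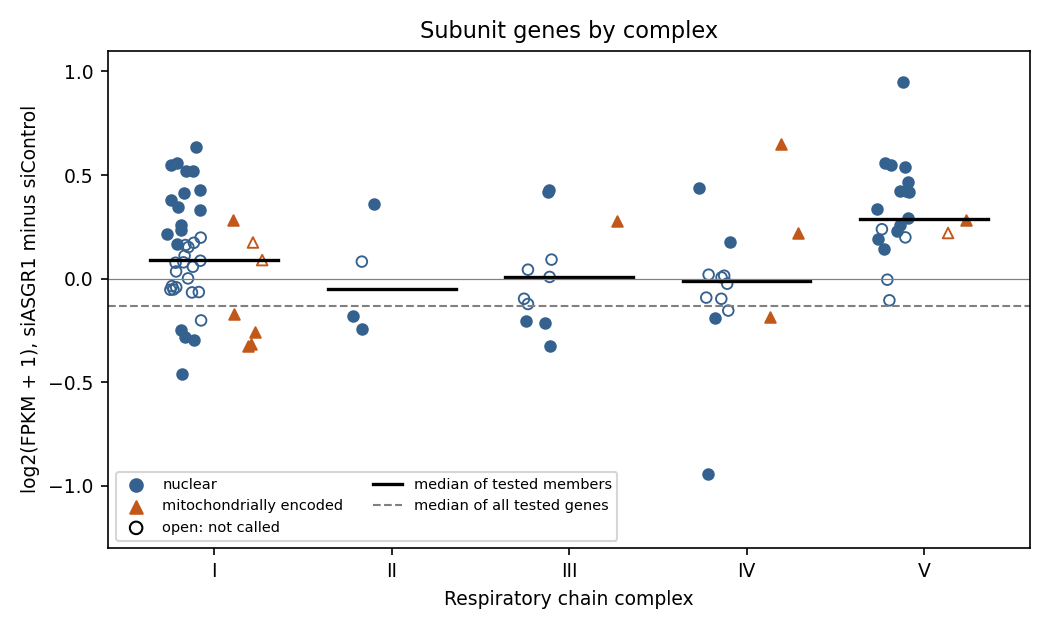
Difference in log2(FPKM + 1), siASGR1 minus siControl, of each tested subunit gene (y axis) by complex (x axis); circles are nuclear and triangles mitochondrially encoded genes, open symbols were not called, black bars are medians of tested members and the dashed line is the median of all tested genes. The complex V median lies at 0.29, against 0.09 in complex I and between -0.05 and 0.01 in complexes II to IV, and the dashed line lies at -0.13.

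The mitochondrially encoded mRNAs lie side by side on 1 small genome and some share bases. MT-ATP8 and MT-ATP6, subunits of the ATP synthase membrane part, are read from a single mRNA, and their reading frames overlap. The shared stretch (GRCh38, chrM:8527-8572, plus strand) is shown because it makes up 22.2% of MT-ATP8, so reads there cannot be given to either gene with certainty. Capitals mark the start codon of MT-ATP6 and the last 3 bases of MT-ATP8.
MT-ATP8/MT-ATP6: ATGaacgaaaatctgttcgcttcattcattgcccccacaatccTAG
MT-ND4L and MT-ND4, membrane subunits of complex I, also share an mRNA and overlap by 7 bases (capitals; window chrM:10737-10766, plus strand).
MT-ND4L/MT-ND4: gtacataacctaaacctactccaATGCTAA

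The mitochondrial mRNAs moved in both directions along this genome. MT-CO3, a core subunit of cytochrome c oxidase encoded just downstream of MT-ATP6, was 3451, 3436 and 3580 FPKM in siControl and 5652, 5420 and 5333 in siASGR1. The groups lay far apart, and the rise was 1.57-fold (log2 difference 0.65, SE 0.05, limma adjusted p = 5.07e-05). MT-ATP6, its neighbour, was 4797, 5233 and 4862 FPKM in siControl and 6021, 6039 and 6041 in siASGR1. Every siASGR1 value was above every control, and the rise was 1.22-fold (log2 difference 0.28, adjusted p = 0.00371). MT-ATP8 was 765, 753 and 1027 FPKM in siControl and 854, 994 and 1103 in siASGR1. These values overlap, and the gene was not called (log2 difference 0.22, SE 0.14), with the largest SE of the 13 mRNAs.

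MT-ND1, a complex I subunit near the quinone site, rose 1.22-fold from 1435 ± 41.2 to 1745 ± 55.8 FPKM (SD, n = 3 libraries, as for all such values). MT-CYB, cytochrome b of complex III, rose 1.21-fold from 2651 ± 70.2 to 3217 ± 45.4 FPKM (adjusted p = 0.00163). Quantile normalization gives genes of equal rank the same value in every library, and it put MT-CYB at a log2 difference of 0.0. That setting cannot show a change in a gene that keeps its rank. MT-CO1, the catalytic subunit of complex IV, was 6878, 6373 and 6062 FPKM in siControl and 7368, 7559 and 7510 in siASGR1. Its groups did not overlap (log2 difference 0.22, adjusted p = 0.0209), but the call was lost in 3 of the 6 fits that left out 1 library each (siControl replicate 3, siASGR1 replicate 1 or siASGR1 replicate 3), with an adjusted p of up to 0.0717. MT-ND2 and MT-ND3 had log2 differences of 0.09 and 0.17 and were not called. With no filter on low values, 0 of the 13 mRNAs were called, and the adjusted p of MT-CO3 was then 0.0518 and that of the others 0.0803 or more. The log2 difference of MT-CO3 was the same in that fit (0.65), but its SE was 0.19 in place of 0.05.

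Complex I mRNAs of the bicistronic pair were lower. MT-ND4 was 6984, 7184 and 7137 FPKM in siControl and 5622, 5554 and 5961 in siASGR1. MT-ND4L was 4669, 4571 and 4471 FPKM in siControl and 3639, 3632 and 3674 in siASGR1. The groups did not overlap for either gene, and the differences were nearly equal (log2 difference -0.31 and -0.32, adjusted p = 0.00208 and 0.000858). With median-of-ratios scaling neither passed, although both passed with factors from genes at 1 FPKM or more. MT-ND5 (log2 difference -0.17), MT-ND6 (-0.26) and MT-CO2 (-0.18) were also called lower as deposited, with adjusted p of 0.0220, 0.0351 and 0.0442. These 3 calls were lost under either median-of-ratios scaling, and MT-ND5 and MT-CO2 then changed sign in 1 of these scalings (0.03 and 0.02). They were also fragile to single libraries. MT-ND5 lost its call without siControl replicate 2, siASGR1 replicate 1 or siASGR1 replicate 2 (adjusted p of up to 0.0613), and MT-ND6 without siControl replicate 3, siASGR1 replicate 1 or siASGR1 replicate 2 (up to 0.0982). MT-CO2 kept its call in 1 of 6 omissions, the one of siControl replicate 3 (adjusted p of up to 0.170). MT-ND6 is the only mRNA encoded on the opposite strand, and since the strand setting of the counting is not given in the sources used here, its reads cannot be told apart from antisense RNA.

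**Figure D2:**
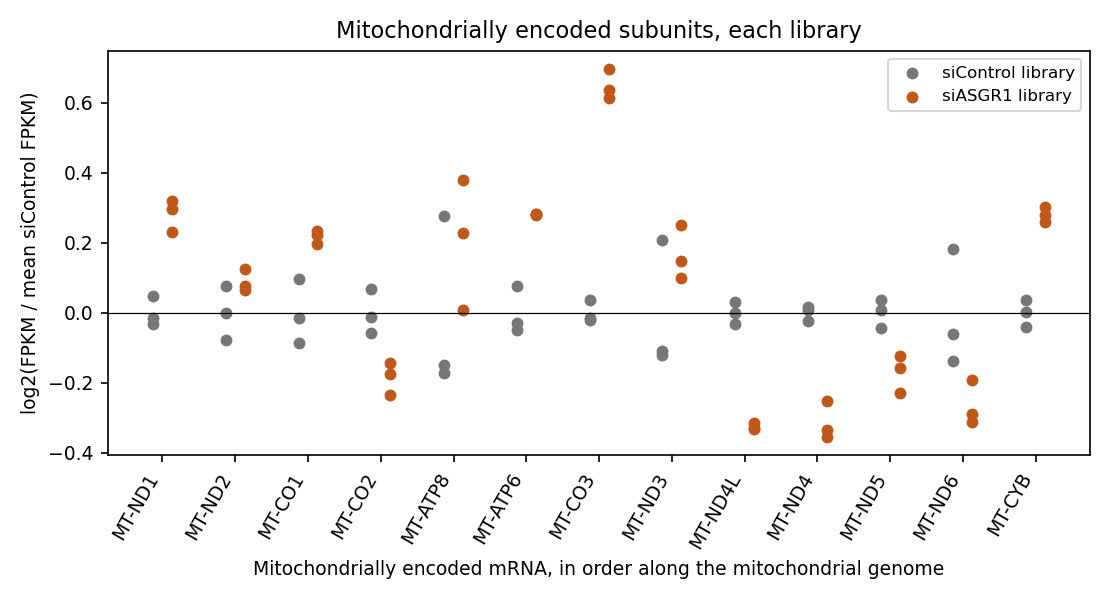
FPKM of each library as log2 of its ratio to the siControl mean (y axis) for the 13 mitochondrially encoded mRNAs in genome order (x axis); grey points are siControl and orange points siASGR1 libraries. The 3 siASGR1 points of MT-CO3 stand highest, while MT-ND4L and MT-ND4 lie below their controls and MT-ND2, MT-ND3 and MT-ATP8 overlap with them.

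The 13 mRNAs together took 17.4 ± 0.32% of all FPKM in siControl and 17.8 ± 0.31% in siASGR1, and the libraries of the groups overlapped. A share of FPKM is not a share of reads. Of the reads rebuilt from FPKM, all genes with an MT- symbol, ribosomal RNAs included, took 6.35%, 6.34% and 6.56% in siControl. In siASGR1 they took 5.92%, 5.84% and 5.84%, lower and without overlap. Of the 2 mitochondrial ribosomal RNAs, MT-RNR2 (the large subunit RNA) fell from 9786 ± 1021 to 5351 ± 188 FPKM (adjusted p = 0.000124, or 0.0767 with no filter), and MT-RNR1 was 2452 ± 172 and 2529 ± 204 and was not called. Some nuclear copies of mitochondrial genes are near-identical to them, so reads could be split. MTATP6P1 matches MT-ATP6 at 98.5% of 681 bases and was 663 ± 70.3 and 930 ± 52.9 FPKM, and MTCO1P12 matches MT-CO1 at 98.6% of 1542 bases and was 18.5 ± 1.94 and 21.5 ± 1.74. MT-ATP6, MT-CO1, MT-ND1 and MT-ND2 values are uncertain to that extent.

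In complex V the rises reached every part of the enzyme. ATP5PB (ENSG00000116459; GRCh38 chr1:111448864-111462773, plus strand), subunit b of the peripheral stalk that holds the head still, was 24.13, 23.82 and 23.28 FPKM in siControl and 46.45, 47.66 and 46.17 in siASGR1. The 3 siASGR1 values lay close together and far above the controls. The rise was 1.97-fold (log2 difference 0.95, SE 0.04, limma adjusted p = 3.49e-06), the largest of all 92 tested members. ATP5F1B, the catalytic beta subunit of the head and the nuclear subunit gene with the highest FPKM, was 400.8, 403.4 and 397.1 FPKM in siControl and 583.8, 620.9 and 555.6 in siASGR1. Its groups were well apart (1.47-fold, adjusted p = 7.89e-05).

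The other head genes, ATP5F1A (alpha), ATP5F1C (gamma), ATP5F1D (delta) and ATP5F1E (epsilon), were also called higher, so 5 of 5 were, with log2 differences of 0.23 to 0.55. All 4 stalk genes (ATP5PB, ATP5PD, ATP5PF and ATP5PO) were called higher, with log2 differences of 0.14 to 0.95. The ATP5F1D call was lost without siASGR1 replicate 2 or 3 (adjusted p of up to 0.0616), and the ATP5PD call without siControl replicate 1 or 3 or siASGR1 replicate 2 or 3 (up to 0.116). Quantile normalization ended the calls of ATP5F1C and, among the membrane subunits below, ATP5ME (adjusted p = 0.113 and 0.0748). ATP5F1D and ATP5PD were not called either once low genes were kept in (adjusted p = 0.0664 and 0.0697). ATP5MC1, ATP5MC2 and ATP5MC3 encode the same mature subunit c of the rotor ring with different import sequences, and all 3 were called higher. ATP5MC1 was 22.77, 23.83 and 25.18 FPKM in siControl and 33.07, 31.99 and 31.95 in siASGR1. ATP5MC2 was 29.47, 29.76 and 27.92 FPKM in siControl and 41.76, 47.53 and 39.19 in siASGR1. ATP5MC3 was 41.40, 40.76 and 40.55 FPKM in siControl and 54.29, 61.71 and 55.23 in siASGR1. No siASGR1 value of the 3 genes reached down to its controls, the rises were 1.35-fold, 1.47-fold and 1.40-fold, and the order of the 3 levels was the same in both groups.

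The small membrane subunits were mixed. ATP5MF (subunit f) was 63.51, 61.23 and 67.44 FPKM in siControl and 90.06, 104.01 and 90.49 in siASGR1, without overlap (1.48-fold, adjusted p = 0.000320). ATP5ME (subunit e) was also called higher, but not without siControl replicate 1, siControl replicate 3 or siASGR1 replicate 3 (adjusted p of up to 0.0878) and not with no filter (0.0910). ATP5MG was not called (log2 difference 0.24, adjusted p = 0.0503). ATP5MJ and ATP5MK were not called either (log2 differences of -0.10 and -0.01), and ATP5MGL, at most 0.23 FPKM, was too low to test. ATP5IF1, the inhibitor that blocks ATP hydrolysis when the membrane potential falls, was 93.6 ± 8.04 and 107.6 ± 8.53 FPKM and was not called (log2 difference 0.20, adjusted p = 0.0627). It was called higher under both median-of-ratios scalings, with a filter at FPKM 5 (adjusted p = 0.0376) and by limma-voom on rebuilt reads (0.00881). Across all 22 settings tried, 11 to 19 complex V members were called higher and 0 to 1 lower. Shares of all tested genes are given only for the deposited values and both median-of-ratios scalings.

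**Figure D3:**
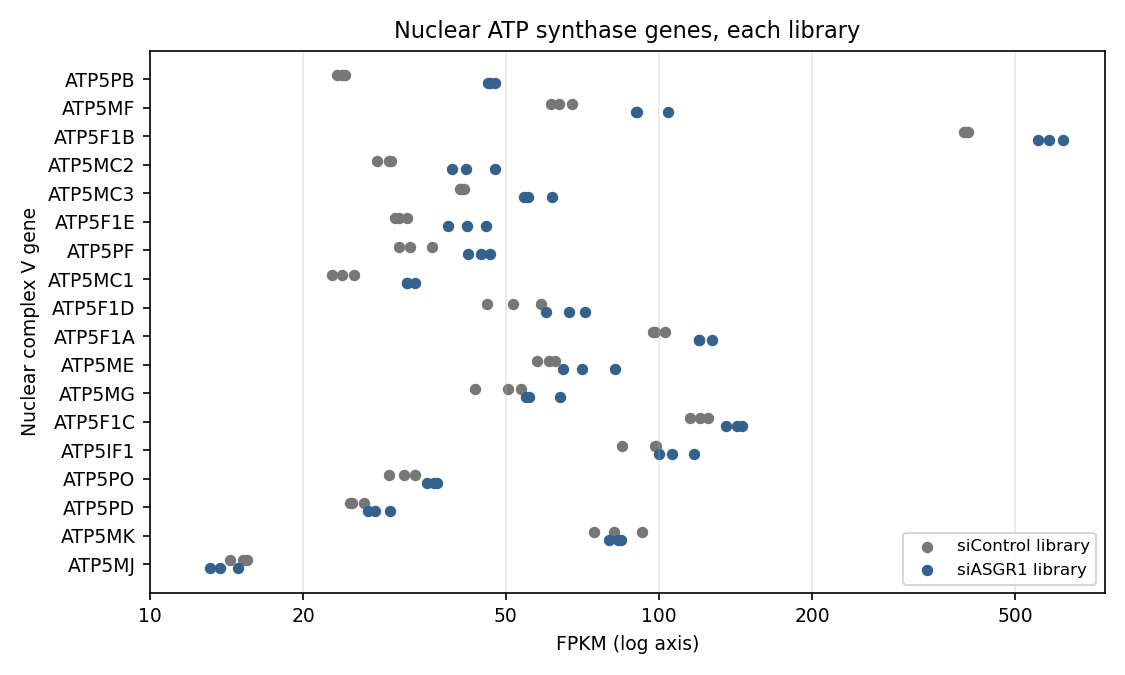
FPKM on a log axis (x axis) of each library for the 18 tested nuclear complex V genes (y axis, ordered by their log2 difference); grey points are siControl and blue points siASGR1 libraries. The siASGR1 points lie to the right of all controls in 16 of the 18 genes, farthest in ATP5PB, while those of ATP5MK and ATP5MJ overlap with the controls. Among all 13568 tested genes, siASGR1 lay above all controls in 3188.

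Promoters of respiratory chain genes are known for sites of the factors NRF1, GABP (an ETS family factor), YY1 and Sp1. RefSeq promoters (GRCh38.p14, 250 bases before to 50 after the start) were found for 68 of the 85 nuclear genes, 81 promoters in all, and searched on both strands for 4 strings, none of which holds another. GCGCANGCG (NRF1) was in 28.4% of them and in 7.52% of all 35116 promoters in the table. CCGGAAG (ETS) was in 25.9% and 10.3%, AAGATGGCG (YY1) in 12.3% and 1.75%, and GGGCGG (Sp1) in 61.7% and 45.0%. The set of all promoters was not limited to genes tested here, so these shares do not compare members with other expressed genes. By call, GCGCANGCG was in 9 of 28 promoters of genes called higher, in 4 of 8 of those called lower and in 9 of 41 of those not called, so it was not limited to either direction. The 150 bases before the first listed start are shown for 5 genes, along the gene's strand and with matches in this window in capitals. They are from 3 complex V genes that rose, ATP5PF among them because it holds 3 of the 4 strings, and from the 2 genes with the largest falls of those with a promoter in the table.
ATP5PB (chr1:111449314-111449463, plus strand, no match): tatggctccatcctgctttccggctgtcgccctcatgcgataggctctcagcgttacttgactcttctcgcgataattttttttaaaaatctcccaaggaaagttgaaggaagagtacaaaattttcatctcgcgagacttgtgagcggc
ATP5MC2 (chr12:53676084-53676233, minus strand, NRF1 string): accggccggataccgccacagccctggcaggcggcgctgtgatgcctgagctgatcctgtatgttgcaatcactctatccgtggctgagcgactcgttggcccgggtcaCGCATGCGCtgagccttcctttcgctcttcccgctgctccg
ATP5PF (chr21:25735055-25735204, minus strand, NRF1, YY1 and ETS strings): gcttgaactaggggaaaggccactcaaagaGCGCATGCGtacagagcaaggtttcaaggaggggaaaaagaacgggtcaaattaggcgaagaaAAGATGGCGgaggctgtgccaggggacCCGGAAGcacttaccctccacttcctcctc
COX7A2L (chr2:42361218-42361367, minus strand, no match): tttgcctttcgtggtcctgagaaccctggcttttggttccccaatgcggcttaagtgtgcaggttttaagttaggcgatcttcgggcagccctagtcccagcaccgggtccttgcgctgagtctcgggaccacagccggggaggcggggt
NDUFS7 (chr19:1383757-1383906, plus strand, NRF1 and Sp1 strings): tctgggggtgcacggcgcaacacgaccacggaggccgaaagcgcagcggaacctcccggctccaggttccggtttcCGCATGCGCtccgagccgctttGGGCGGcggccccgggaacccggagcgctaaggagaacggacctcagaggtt

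Complex I takes electrons from NADH. Among its 11 NDUFB genes, accessory subunits of the membrane arm, 8 were called higher and 0 lower (median log2 difference 0.26), and 9 and 0 with median-of-ratios scaling. Of all tested genes, 20.9% were called higher and 40.4% lower as deposited. In all 11, siASGR1 replicate 2 was the highest of its group, as in 34.2% of all tested genes. The NDUFB8 call was lost without siControl replicate 1 or siASGR1 replicate 1 or 2. That of NDUFB5 was lost without siControl replicate 1 or 2 or siASGR1 replicate 2 (limma adjusted p of up to 0.0604). NDUFB2 was 6.50, 6.02 and 5.67 FPKM in siControl and 8.98, 11.49 and 9.55 in siASGR1. The groups were apart and the rise was 1.65-fold (log2 difference 0.63, SE 0.09, adjusted p = 0.000804). NDUFB10 was 99.63, 98.38 and 92.11 FPKM in siControl and 131.44, 153.48 and 143.94 in siASGR1, again without overlap (1.48-fold). NDUFB6 rose 1.45-fold from 22.8 ± 1.72 to 33.1 ± 1.46 FPKM. Of the 12 NDUFA genes tested here, 3 were called higher and 0 lower as deposited, against 9 and 0 with median-of-ratios scaling and 8 and 0 with factors from genes at 1 FPKM or more. NDUFA9, an NADPH-binding subunit at the junction of the arms, was 9.17, 9.10 and 9.21 FPKM in siControl and 13.45, 14.40 and 13.67 in siASGR1. Its controls were almost equal to each other and the rise was 1.51-fold (adjusted p = 5.30e-05).

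The NDUFS and NDUFV genes, mostly of the peripheral arm, had 3 higher and 3 lower of 11, against 7 and 0 with median-of-ratios scaling and 5 and 3 with the other factors. The families were not tested against each other. NDUFS7, which carries the last iron-sulfur cluster before quinone, was 13.05, 12.63 and 11.04 FPKM in siControl and 8.39, 10.11 and 7.45 in siASGR1. The ranges did not meet, although each group was spread (log2 difference -0.46, SE 0.11, adjusted p = 0.00763). NDUFS4, an accessory subunit whose loss causes Leigh syndrome, fell from 25.6 ± 1.91 to 20.6 ± 0.86 FPKM (log2 difference -0.30), NDUFV3 from 5.13 ± 0.14 to 4.16 ± 0.17 (-0.25) and NDUFC2 from 7.21 ± 0.48 to 5.73 ± 0.21 (-0.28). These 4 falls were not called with median-of-ratios scaling but were with factors from genes at 1 FPKM or more. Quantile normalization ended the calls of NDUFV3 and NDUFC2 (adjusted p = 0.259 and 0.0651). Over complex I, median-of-ratios scaling gave 29 higher and 0 lower, and the factors from genes at 1 FPKM or more 26 and 6.

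Complex II, succinate dehydrogenase, has only nuclear subunits, and these went in different directions. SDHC, a membrane anchor, was 28.33, 25.88 and 28.59 FPKM in siControl and 36.76, 37.75 and 32.64 in siASGR1. SDHD, the other membrane anchor, was 26.08, 25.39 and 28.55 FPKM in siControl and 23.28, 21.61 and 22.13 in siASGR1. The anchors thus moved apart, SDHC higher (log2 difference 0.36, adjusted p = 0.00263) and SDHD lower (-0.24, adjusted p = 0.00663). Their levels cannot be compared with each other in FPKM, which depend on the exon length used (14160 bases for SDHC and 2838 for SDHD). The flavoprotein gene SDHA was 28.0 ± 1.54 and 24.6 ± 1.24 FPKM and was called lower (-0.18, adjusted p = 0.0264). That call was lost without siControl replicate 1 or 2 or siASGR1 replicate 1 or 3 (adjusted p of up to 0.0905) or with no filter (0.0600). The iron-sulfur subunit gene SDHB was 39.9 ± 1.69 and 42.4 ± 3.38 and was not called. With median-of-ratios scaling SDHC and SDHB were called higher, SDHD was not called, and SDHA was at 0.02 and was not called.

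In complex III, which passes electrons from quinol to cytochrome c, CYC1 and UQCRQ rose with MT-CYB. CYC1, the cytochrome c1 subunit, was 64.06, 64.99 and 62.71 FPKM in siControl and 78.92, 92.93 and 86.06 in siASGR1. UQCRQ, a small membrane subunit, was 62.59, 61.77 and 62.08 FPKM in siControl and 79.09, 95.50 and 78.67 in siASGR1. For each gene the controls were tight and all siASGR1 values higher (1.34-fold and 1.36-fold, adjusted p = 0.000793 and 0.002). UQCRB, which helps form the quinone site, fell from 16.8 ± 1.88 to 13.2 ± 0.35 FPKM (log2 difference -0.33, adjusted p = 0.00817), and UQCR10 from 95.6 ± 1.94 to 83.2 ± 7.30 (-0.20). The UQCR10 call was lost without siControl replicate 1 or 2 or siASGR1 replicate 1 or 3 (adjusted p of up to 0.0766) and with no filter (0.0768). UQCRHL, an intronless copy of the hinge protein gene UQCRH, was called lower (-0.21), but the 2 transcripts are 92.8% identical over 553 bases, so their reads could be split, and UQCRH was not called. UQCRHL was no longer called once siControl replicate 1 was left out (adjusted p = 0.0590), nor when low genes were kept in (0.0567). With median-of-ratios scaling 6 complex III members were called higher and 0 lower. The large core proteins UQCRC1 and UQCRC2 had log2 differences of 0.01 and 0.04 and were not called.

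Nuclear complex IV genes mostly stayed within the spread of the libraries. Of the 10 tested COX genes, 1 was called higher (COX6B1), 2 lower (COX7A2L and COX6C) and 7 not at all, with a median log2 difference of -0.06. With median-of-ratios scaling 4 were called higher and 1, COX7A2L, lower. COX7A2L (ENSG00000115944; GRCh38 chr2:42333546-42425088, minus strand), a COX7A-like protein that joins complexes III and IV in supercomplexes, was 23.76, 23.33 and 23.76 FPKM in siControl and 12.19, 12.13 and 11.09 in siASGR1. Every siASGR1 library was far below every control (2.00-fold lower, log2 difference -0.94, SE 0.05, limma adjusted p = 8.46e-06), and it was the only member called lower under every scaling run. Its relative COX7A2, the form used in liver, was 58.0 ± 4.06 and 58.7 ± 2.05 FPKM and was not called, though it was called higher with median-of-ratios scaling. COX6C fell from 41.0 ± 1.11 to 35.9 ± 1.64 (log2 difference -0.19, adjusted p = 0.00874), a call lost under both median-of-ratios scalings, with the sign turned under 1 of them (0.0099). NDUFA4, first described in complex I and now placed in complex IV, was 45.15, 43.66 and 47.09 FPKM in siControl and 61.87, 64.64 and 58.63 in siASGR1, a rise of 1.36-fold without overlap (adjusted p = 0.000245).

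Of each isoform set, the form used in liver or in most tissues had the highest level. COX6A1 (137.4 ± 8.81 and 123.6 ± 12.6 FPKM) and COX8A (370.0 ± 28.9 and 364.1 ± 35.9) were not called, and COX7B was not called either (174.0 ± 6.61 and 163.2 ± 6.38). COX6A1 and COX7B passed as lower with quantile normalization (adjusted p = 0.00661 and 0.00529). The muscle forms COX6A2 and COX7A1 were at most 0.07 and 0.51 FPKM, and the testis forms COX8C at most 0.34 and COX7B2 listed at 0 in all 6 libraries, where 3 reads would give 0.193 to 0.227. COX6B1 was called higher (202.0 ± 9.84 to 228.2 ± 10.6 FPKM), but not without siControl replicate 2 or siASGR1 replicate 2 (adjusted p of up to 0.0705) and not with no filter or quantile normalization (0.0666 and 0.824). Its testis form COX6B2 was 0.65, 0.98 and 0.53 FPKM in siControl and 0.06, 0.06 and 0.08 in siASGR1. It was below the level needed for testing, but the groups were well apart, and with no filter on low values it was called lower (log2 difference -0.68, adjusted p = 0.00676). The siASGR1 values lie close to the level of 3 reads, 0.0408 to 0.0481 FPKM.

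Of the sums of nuclear genes by complex, that of the ATP synthase differed most between the groups. The nuclear complex V genes summed to 1280, 1254 and 1292 FPKM in siControl and 1638, 1773 and 1612 in siASGR1. The nuclear complex IV genes summed to 1448, 1349 and 1362 FPKM in siControl and 1340, 1485 and 1313 in siASGR1. Complex IV thus overlapped between groups, while the lowest siASGR1 sum of complex V was far above its highest control, and the ratio of complex V to complex IV went from 0.92 ± 0.034 to 1.22 ± 0.018 without overlap. Nuclear complex I genes summed to 1417 ± 40.1 and 1604 ± 105 FPKM, complex III to 902 ± 16.0 and 907 ± 57.5, and complex II to 122 ± 2.56 and 125 ± 5.99. All nuclear members took 1.63 ± 0.031% of all FPKM in siControl and 1.82 ± 0.082% in siASGR1, and the mitochondrial mRNAs had 10.7 ± 0.38 and 9.78 ± 0.59 times their sum. These sums were chosen after values were seen and carry no test. They follow the genes of highest FPKM most. Within the complex V sum, ATP5F1B alone had a mean of 400.4 FPKM in siControl and 586.8 in siASGR1, a large part of the difference.

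A single library moved with the nuclear members. siASGR1 replicate 2 was the highest of its group in 63 of the 79 tested nuclear genes (79.7%), in 34.2% of all tested genes and in 2 of the 13 mitochondrial mRNAs (15.4%). Its nuclear members lay 0.08 log2 above their group mean at the median, while replicates 1 and 3 lay at -0.05 and -0.04. Without it, 27 nuclear members were called higher and 16 lower, and complex V had 13 higher and 1 lower. Complex III then had 5 called lower in place of 3. No share of all tested genes is given for that fit, so whether these shifts in counts are particular to the members cannot be told. ATP5PB, ATP5F1B, ATP5MC1, ATP5MC2, ATP5MC3, ATP5MF and COX7A2L kept their calls whichever library was left out, as did 30 of the 38 members called higher and 10 of the 16 called lower.

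**Figure D4:**
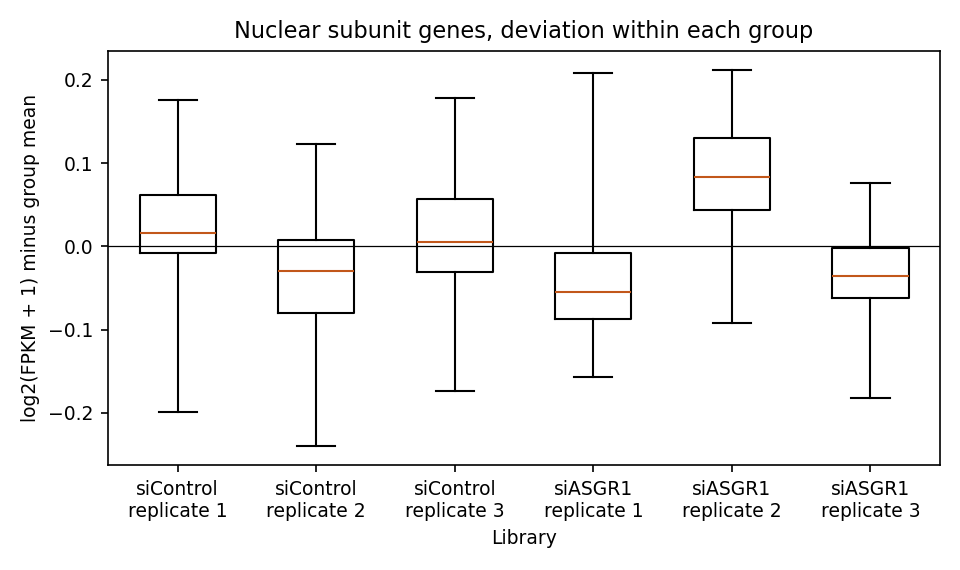
Deviation of log2(FPKM + 1) from the mean of the library's own group (y axis) over the tested nuclear subunit genes in each of the 6 libraries (x axis). Boxes span the quartiles, orange lines are medians and whiskers reach the lowest and highest gene. The siASGR1 replicate 2 box lies above 0, with a median of 0.08, while the other 5 medians lie between -0.05 and 0.02.

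Lists of genes that build and feed the complexes held calls in both directions, except complex II assembly, and their medians lay between -0.19 (complex V assembly) and 0.10 (complex I assembly), where the median of all tested genes was -0.13. Every list count from here on is to be read beside the shares of all tested genes. These were 20.9% higher and 40.4% lower as deposited, and 33.7% and 25.4% with median-of-ratios scaling. The lists were not tested against these shares. Subunits that the symbols left out included NDUFAB1, the acyl carrier protein of complex I, which rose from 41.3 ± 1.89 to 61.7 ± 1.83 FPKM, and CYCS, cytochrome c, which fell from 86.3 ± 8.38 to 60.2 ± 1.82. COX4I1 was 77.4 ± 4.80 and 75.7 ± 3.31 and was not called as deposited, but was called higher with median-of-ratios scaling. In the complex V assembly list 1 of 5 was called higher and 3 lower (1 and 2 with median-of-ratios scaling), where 15 of 20 subunits were higher. ATPAF1, a chaperone of the beta subunit, rose from 7.4 ± 0.15 to 11.5 ± 0.24 FPKM. TMEM70, which helps assemble the c ring, was 2.32-fold lower (11.0 ± 0.21 to 4.77 ± 0.43), and TMEM242 fell from 6.14 ± 0.56 to 3.63 ± 0.038. The gene ATPAF2, a chaperone of the alpha subunit, fell from 3.11 ± 0.081 to 2.60 ± 0.055, a call lost with median-of-ratios scaling and with no filter (adjusted p = 0.0503).

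Complex I assembly factors had 5 higher and 6 lower of 18 (8 and 2 with median-of-ratios scaling). ACAD9 rose from 7.63 ± 0.19 to 11.4 ± 0.26 FPKM, NDUFAF3 from 34.3 ± 0.36 to 54.2 ± 4.88 and NDUFAF8 from 8.49 ± 0.43 to 16.7 ± 2.27, while NDUFAF4 fell from 5.43 ± 0.66 to 3.52 ± 0.30 and COA1 from 11.8 ± 0.22 to 8.15 ± 0.32. Complex IV assembly factors had 8 higher and 8 lower of 24 (12 and 6 with median-of-ratios scaling). SMIM20, which stabilises newly made MT-CO1 protein, was 48.2 ± 0.91 and 23.6 ± 1.2 FPKM (adjusted p = 6.21e-06), and COX18, an insertase, fell from 10.7 ± 0.77 to 6.37 ± 0.64. TMEM177, which helps MT-CO2 protein mature, rose from 5.54 ± 0.43 to 9.73 ± 0.52, and COX11, a copper chaperone, from 16.5 ± 0.83 to 20.8 ± 0.23. Complex II assembly factors had 0 higher and 2 lower of 4, SDHAF2 and SDHAF3 (SDHAF3 was at an adjusted p of 0.0509 with no filter). Those of complex III had 1 higher (UQCC3, 5.62 ± 0.33 to 9.18 ± 1.1) and 2 lower (UQCC1 and TTC19) of 6. With median-of-ratios scaling SDHAF3 and TTC19 were not called, and the counts were 0 higher and 1 lower in complex II and 2 and 1 in complex III assembly.

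Coenzyme Q synthesis genes had 4 higher and 5 lower of 13, a balance that turned to 7 and 3 with median-of-ratios scaling. PDSS1, COQ2 and COQ3, which make the side chain, attach it and methylate the ring, rose 1.65-fold, 1.66-fold and 1.69-fold. COQ10A, a lipid-binding protein, fell from 6.44 ± 0.53 to 3.28 ± 0.068 FPKM and the kinase-like COQ8B from 4.83 ± 0.37 to 2.82 ± 0.18. Of 7 tested carriers and channels of ADP, ATP and phosphate 1 was called higher and 3 lower, turning to 3 and 2 with median-of-ratios scaling. SLC25A5, an ADP/ATP carrier, rose from 435.3 ± 10.5 to 481.1 ± 16.1 FPKM (adjusted p = 0.0201, or 0.0944 with no filter), while its relative SLC25A6 fell from 180.8 ± 13.6 to 127.5 ± 8.70 and the phosphate carrier SLC25A3 from 169.4 ± 1.30 to 123.6 ± 3.50. VDAC3, an outer membrane channel, fell from 38.1 ± 2.26 to 30.8 ± 0.73, a call lost with median-of-ratios scaling.

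Genes that maintain and express mitochondrial DNA had 8 higher and 8 lower of 28 (17 and 3 with median-of-ratios scaling). POLRMT, the mitochondrial RNA polymerase, rose from 18.3 ± 1.62 to 25.99 ± 0.74 FPKM. LRPPRC and SLIRP, partners that stabilise mitochondrial mRNAs, rose 1.37-fold and 1.52-fold, and HSD17B10, a subunit of mitochondrial RNase P, 1.63-fold. TFAM, which packages the DNA and starts transcription, fell from 10.0 ± 1.02 to 8.21 ± 0.34 (adjusted p = 0.0179), a call lost with median-of-ratios scaling. FASTKD5, which acts in mitochondrial RNA processing, fell from 20.1 ± 0.29 to 10.4 ± 0.33 (adjusted p = 6.81e-06), FASTKD1 from 3.54 ± 0.035 to 1.77 ± 0.078 and the exonuclease gene MGME1 from 25.7 ± 1.65 to 19.8 ± 0.58. Of the regulators of nuclear subunit genes 1 was called higher and 2 lower of 7, turning to 3 and 1 with median-of-ratios scaling. NRF1 (5.08 ± 0.62 and 4.39 ± 0.33) and ESRRA (19.5 ± 2.04 and 20.5 ± 1.51) were not called as deposited, and ESRRA was called higher with median-of-ratios scaling (adjusted p = 0.0361). The GABP subunit genes went apart, with GABPA lower (4.80 ± 0.15 to 2.89 ± 0.32) and GABPB1 higher (5.06 ± 0.29 to 7.23 ± 0.42). PPRC1 fell from 13.4 ± 0.59 to 11.9 ± 0.32, a call lost with median-of-ratios scaling, and PPARGC1A was listed at 0 in every library.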

How the data were processed

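Per the submitters' processing notes, the tools named are bcl2fastq 2.17.1.14, cutadapt 1.9.1 as well as HISAT2 2.0.1, with hg19 as the build. The program that counted reads, its strand setting and its annotation were not given in the sources used here. FPKM values deposited by the authors, rounded to 2 decimals, cover 57905 Ensembl IDs. Symbols were found for 51996 IDs (89.8%) and exon lengths (GENCODE v29) for 52338. Coordinates are GRCh38. Depth was rebuilt from the steps of low FPKM values: 96.8% to 97.6% of values up to 20 reads came out whole within 0.15 of a read, where 30.0% would by chance, though the depth was fitted on them. Rebuilt reads served limma-voom, limits of 3 reads (counting error only) and a check of duplicates (chi-square per degree of freedom 2.50 to 5.21 within groups, so none agreed within noise).

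The 13568 genes that reached an FPKM of 1 in 3 or more of the 6 libraries were fitted with limma 3.58.1 (R 4.3.3) on log2(FPKM + 1), group as the only term, a prior that follows the level, two-sided, Benjamini-Hochberg over all tested genes. The log2 scale with 1 added understates changes of low genes. Folds are of mean FPKM. The fit was tested on simulated data. The members, lists and tests were chosen with earlier results of these data known. Named were all MT- members, up to 4 called nuclear members per direction and complex without overlap, the 2 of highest FPKM per complex, isoform sets, SDHA to SDHD and ATP5IF1. From each list up to 3 called genes per direction with the smallest p could be named, plus 9 genes whatever their values; other members were named after their values were seen. SCO2, FASTKD4 and COXFA4L3 were not matched and were not used here. Alternatives covered scaling, filter, pseudocount, prior, voom, source files, block, thresholds and each library. Python 3.11.15, numpy 2.4.6, pandas 2.3.3 and matplotlib 3.10.9 were used. The values of some single genes are not reported here.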

Additional observations from a re-analysis of the deposited data

How the results depend on the processing

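Counts and single members were recomputed under 21 other settings. Of 944 values for the 45 named members tested, 805 kept their direction and their side of the threshold, 89 lost and 27 gained a call, 12 moved and 11 reversed. Scaling mattered most. Median-of-ratios scaling gave, higher and lower, 62 and 1 of all members, 8 and 0 mitochondrial, 54 and 1 nuclear, 29 and 0 in complex I, 2 and 0 in II, 6 and 0 in III and 7 and 1 in IV. Upper-quartile scaling gave 65 and 1, 8 and 0, 57 and 1, 30 and 0, 2 and 0, 6 and 0, and 8 and 1 in the same order. It put the median log2 difference of all tested genes at 0.06, against -0.13 as deposited. Shares of all tested genes are given above only for the deposited values and both median-of-ratios scalings. Counts under the other settings thus have no such share to be read against. Factors from genes at FPKM 1 or more, a setting chosen after seeing the data, gave 8 members lower in all, 2 mitochondrial and 6 nuclear, and 26 higher in complex I, 2 higher and 0 lower in II, 5 and 1 in III and 1 lower in IV. With no filter on low values, 9 members were called lower, 0 mitochondrial mRNAs were called in either direction (0 higher, 0 lower), 4 were lower in complex I, 1 in II and 1 in III, and 1 higher in IV. At an adjusted p under 0.01, 10 members were lower, 2 of them mitochondrial, with 1 lower in complex II, 1 lower in III and 2 higher in IV. At a log2 difference of at least 0.2, 3 mitochondrial members, 1 of complex II and 1 of IV were lower. Quantile normalization gave 6 lower in complex IV. The 11 reversed values were log2 differences that turned from negative to positive. With median-of-ratios scaling these were COX6C (0.0099), MT-CO2 (0.021), MT-ND5 (0.034) and SDHA (0.018), none of them called there. With upper-quartile scaling they were COX6C (0.034), COX7B (0.14), MT-CO2 (0.046), MT-ND5 (0.059), SDHA (0.043), UQCR10 (0.024) and UQCRHL (0.016). The cause of each was not tested. Complex V was within 1.5 times of its 15 higher calls in all settings.

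No pairing by replicate number was visible in the values: deviations of same-numbered libraries correlated at -0.02, 0.00 and 0.01. The labels do not say whether same-numbered libraries were handled together, and these correlations cannot decide it. A replicate block gave 3 mitochondrial members lower and 2 of complex IV higher, and 36 members higher and 15 lower in all. Leaving out 1 library at a time gave 32 to 38 members higher and 11 to 18 lower, 4 to 6 mitochondrial higher and 2 to 4 lower, 27 to 33 nuclear higher and 8 to 16 lower, 12 to 16 higher and 6 to 8 lower in complex I, 1 to 2 lower in II, 1 to 5 lower in III, 3 to 4 higher and 2 to 4 lower in IV, and 12 to 16 higher and 0 to 1 lower in V. With 3 libraries a group, differences under about 0.2 log2 were often not separable from the spread, and values under 3 reads give no fold.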
